A study of Mus musculus with 6 samples.

Results

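Transcript starts were examined in mouse nucleus accumbens (NAc), the part of the ventral striatum that serves reward. A stable start is a transcript start listed in all 6 libraries of the study. The genes described here are the 1861 genes with 2 or more stable starts, which together hold 4239 of them. They were chosen by presence in the lists alone. A start was identified by gene, chromosome, strand and splice-side coordinate, which is the base where the first exon is joined to the next one. The lists held 43725 different starts in 16154 genes. Of these, 12695 starts (29.0%) were stable, in 10317 genes. A further 8456 genes had exactly 1 stable start, so the genes with several made up 18.04% of the genes with any. Presence chose the genes, so their number is a description and no test was run on it. Just inside the limit lay 1468 genes with exactly 2 stable starts. Just outside it lay 532 genes with 1 stable start and a further start in 5 libraries.

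There were 3 libraries of saline-trained and 3 of morphine-trained C57BL/6N mice. Animals of both groups went through conditioned place preference (CPP) training, in which a compartment is paired with an injection, and the groups differ in the injected agent. The series text names more mice than samples for a group, but a figure text of the study shows 1 mouse per library. Whether tissue was pooled is not settled, and p-values measure the spread between these libraries only. The question addressed is where transcripts start in this tissue and whether that differed after morphine.

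Each library has a list of starts, ends and splicing events of its assembled transcripts, with positions and no expression level. The lists held 21407 to 22915 starts per library. Read totals were not analysed here. The depth relative to the first saline library, estimated from the 91 usable pairs of count and FPKM in the table of differential transcripts, was 1 to 1.37 in the saline and 1.2 to 1.59 in the morphine libraries. The ranges overlapped, and the part of depth in any difference was not tested. Positions matched the GRCm38 gene models of GENCODE M21. At least 1 start was listed for 46 of 47 marker genes of 9 brain cell types. These included all 8 markers of medium spiny neurons, the main neurons of the NAc, and all 4 markers of cortical projection neurons. The lists give no level, so the share of each cell type could not be read from them.

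Many genes are transcribed from several promoters. Each promoter gives its own first exon, which is spliced to exons that the transcripts share. Where the first exons hold different start codons, the choice of promoter changes the beginning of the protein, and where they are untranslated it changes the leader of the mRNA. Neuronal genes such as the ankyrins, Bdnf and Gnas are textbook examples.

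The bases upstream of a start show how unlike the promoters of a gene can be. RefSeq promoter windows on GRCm38.p6 were matched by symbol, chromosome and strand to the starts within 50 bases. A window was found for 1910 of the 4239 starts (45.1%), at 1606 different windows, and for 4937 of the 8456 starts of genes with 1 stable start (58.4%). The sequences below are the 100 bases before the RefSeq start, read towards the gene, for starts of genes in which the windows differ in CG dinucleotides or of genes named later. Capitals mark each CG. Starts are numbered from the most upstream one.
Ank2 start 1, chr3:127499116-127499215, minus strand: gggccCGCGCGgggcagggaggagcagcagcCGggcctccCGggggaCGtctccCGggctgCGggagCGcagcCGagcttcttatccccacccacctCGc
Ank2 start 6, chr3:126998453-126998552, minus strand: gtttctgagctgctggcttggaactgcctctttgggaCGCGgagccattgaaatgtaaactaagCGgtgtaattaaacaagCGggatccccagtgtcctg
Foxp1 start 2, chr6:99520994-99521093, minus strand: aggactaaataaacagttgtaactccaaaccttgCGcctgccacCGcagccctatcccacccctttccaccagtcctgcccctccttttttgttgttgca
Foxp1 start 6, chr6:99028299-99028398, minus strand: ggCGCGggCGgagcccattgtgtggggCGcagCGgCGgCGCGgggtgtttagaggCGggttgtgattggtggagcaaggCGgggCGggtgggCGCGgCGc
Ddr1 start 3, chr17:35702045-35702144, minus strand: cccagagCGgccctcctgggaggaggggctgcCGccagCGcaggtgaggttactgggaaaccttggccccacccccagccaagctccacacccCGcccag
Ddr1 start 5, chr17:35700591-35700690, minus strand: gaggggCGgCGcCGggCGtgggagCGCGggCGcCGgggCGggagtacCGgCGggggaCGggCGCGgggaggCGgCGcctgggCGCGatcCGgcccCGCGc
Gnas start 1, chr2:174284220-174284319, plus strand: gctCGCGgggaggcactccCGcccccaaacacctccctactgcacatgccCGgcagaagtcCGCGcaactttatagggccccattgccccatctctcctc
Gnas start 3, chr2:174327668-174327767, plus strand: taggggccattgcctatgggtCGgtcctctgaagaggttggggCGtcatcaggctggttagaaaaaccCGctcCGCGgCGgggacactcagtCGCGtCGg
Sgk1 start 1, chr10:21882084-21882183, plus strand: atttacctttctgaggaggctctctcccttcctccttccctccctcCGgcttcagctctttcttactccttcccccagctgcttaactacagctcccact
Sgk1 start 3, chr10:21994566-21994665, plus strand: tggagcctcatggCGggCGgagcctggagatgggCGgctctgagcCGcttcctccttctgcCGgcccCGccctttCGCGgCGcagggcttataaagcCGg
Akt1 start 1, chr12:112674885-112674984, minus strand: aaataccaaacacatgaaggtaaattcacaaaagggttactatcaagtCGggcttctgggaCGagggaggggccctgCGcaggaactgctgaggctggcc
Akt1 start 2, chr12:112674277-112674376, minus strand: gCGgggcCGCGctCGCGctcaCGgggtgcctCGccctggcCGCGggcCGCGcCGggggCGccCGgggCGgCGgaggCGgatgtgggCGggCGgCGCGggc
Drd1 start 1, chr13:54055659-54055758, minus strand: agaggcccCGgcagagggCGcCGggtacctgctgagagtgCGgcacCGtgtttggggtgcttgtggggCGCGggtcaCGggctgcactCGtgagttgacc

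Ank2 encodes ankyrin-B, an adaptor between membrane proteins and the spectrin skeleton. In the 250 bases before its start 1 there were 19 CG dinucleotides and the ratio of observed to expected CG was 0.765, against 5 and 0.265 before its start 6. Foxp1, a forkhead transcription factor of striatal neurons, had the reverse order, with 11 CG and a ratio of 0.52 before start 2 and 34 and 1.12 before start 6. Ddr1, a collagen receptor kinase, had 9 CG before start 3 and 34 before start 5. Sgk1, a kinase induced by glucocorticoids, had 2 CG before start 1 and 22 before start 3, where the letters TATAAA also occurred. Akt1, a kinase of the insulin pathway, had 7 CG before start 1 and 31 before start 2. Both Gnas windows were rich in CG, with 14 before start 1 and 22 before start 3. Gnas is an imprinted locus that encodes the stimulatory G protein alpha subunit.

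Across all 1606 windows the median CG ratio was 0.727, close to 0.752 over the 4937 windows of genes with 1 stable start. Both were above the median of 0.373 over all 32851 RefSeq windows. Chromosome 18 was kept in that set and left out of the other 2, so the sets are not fully alike. Crem and Tcf4, described below, lie on this chromosome and are not among the matched windows. The ratio was at least 0.6 in 66.5% of the windows of genes with several stable starts, in 73.1% of those with 1, and in 34.0% of all. Within the genes with several, it reached 0.6 in 72.5% of 978 windows at the most upstream start, in 57.4% of 183 in between and in 64.4% of 739 at the most downstream start. These classes share windows, as a window matched to several starts counts once in each of their classes. In 264 genes the most upstream and the most downstream start had a window each. Of these, 113 had both ratios at 0.6 or more, 59 the upstream one only, 40 the downstream one only and 52 neither.

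Motifs were sought as exact letters. The TATA letters TATAAA, on the strand of the gene and in the last 50 bases before the start, were in 0.685% of the windows of genes with several stable starts, in 1.42% of those with 1 and in 2.63% of all. The letters GGGCGG, bound by Sp1, stood on either strand in 60.6%, 63.99% and 32.7%. The cAMP response element TGACGTCA, which reads the same on both strands, was in 44 windows (2.74%) of genes with several, in 155 (3.14%) of genes with 1 and in 508 (1.55%) of all. These shares describe the windows that were matched and kept, and the genes with several stable starts did not stand above those with 1.

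The starts of a gene were either close together or far apart. There were 2375 pairs of neighbouring stable starts, with a median of 514 bases between their outer ends. The outer end is the first base of the first exon, and its median over the 6 libraries was used for these pairs. In 211 pairs (8.88%) both starts had the same median outer end and differed in the splice-side coordinate. Fewer pairs, 127, shared the outer end in each of the 6 libraries. In 566 pairs (23.8%) the first exons overlapped. In 655 pairs (27.6%) they were separate and under 1000 bases apart, in 326 (13.7%) from 1000 to under 10000 bases apart, and in 617 (26.0%) 10000 bases or more apart. After overlapping first exons were joined, 1234 genes (66.3%) still had separate first exons and 627 had a single group. The widest gap was 2233856 bases, in Dmd, which encodes dystrophin. The upstream Dmd start of this pair was not annotated, and its outer end moved between libraries.

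**Figure D1:**
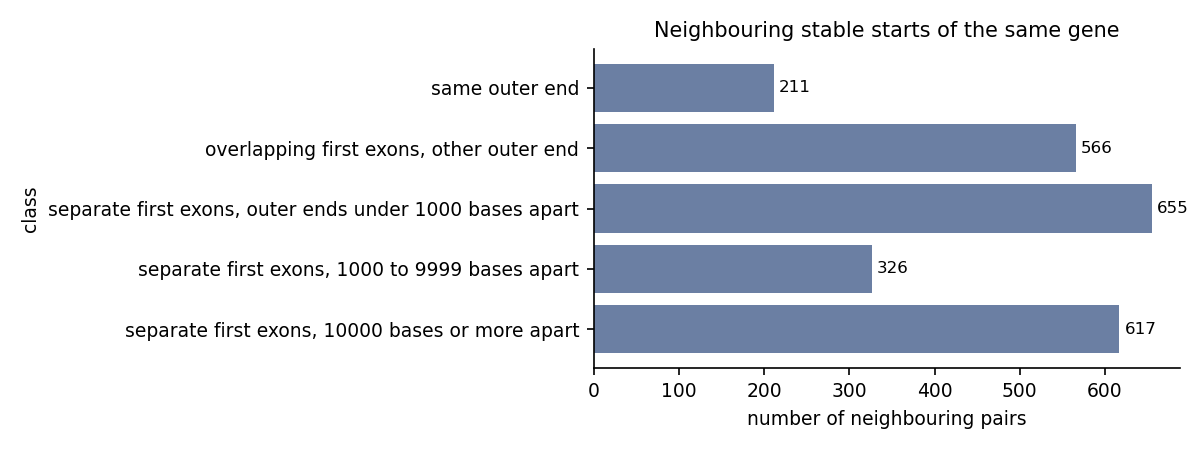
Neighbouring stable starts of the same gene, by the arrangement of their first exons. Each bar is a number of pairs out of 2375 and the longest bars, 655 and 617 pairs, are the near and the most distant class of separate first exons.

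Among the genes, 300 had 3 stable starts, 70 had 4, 15 had 5 and 8 had 6. The 8 genes with 6 were Celf2, Ank2, Foxp1, Map2, Macf1, Abr, Phldb1 and Ddr1. Celf2, an RNA-binding regulator of splicing, had starts spread over 674270 bases. Its starts 1 and 2 lay 198 bases apart and the third lay 314956 bases downstream of the first. The first exon of start 1 was 373 bases in 1 saline library and 67 bases in the other 5 libraries, and the other first exons of Celf2 were identical in all 6. Ank2 had its 6 starts over 500654 bases, with no pair of overlapping first exons. Macf1, a spectraplakin that links microtubules and actin, had 6 separate starts over 210981 bases. Map2, which encodes a dendritic microtubule protein, had 6 starts over 241478 bases. Abr, a regulator of small GTPases, had 6 over 153849 bases, all with the same outer end in every library.

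Ddr1 was the most compact of the 8, with all starts within 6650 bases, and no first exon of it held the annotated start codon. Start 6 of Ddr1 had a first exon of 297 bases in 5 libraries and 2936 bases in 1 morphine library. Phldb1, a pleckstrin homology protein, held its 6 starts within 33465 bases. Of the genes with 5 stable starts, the widest was Nrxn3, a presynaptic adhesion gene known for long and short forms from separate promoters. Its starts covered 1089611 bases. Start 2 of Nrxn3 had a first exon of 1390 bases in every library. Its start 5 had 1158 bases in 5 libraries and 19180 in 1 saline library. Camta1, a calmodulin-binding transcription activator, Dlgap1, a postsynaptic scaffold gene, and Ncald, a neuronal calcium sensor, also had 5 stable starts, over 753443, 552916 and 333892 bases.

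**Figure D2:**
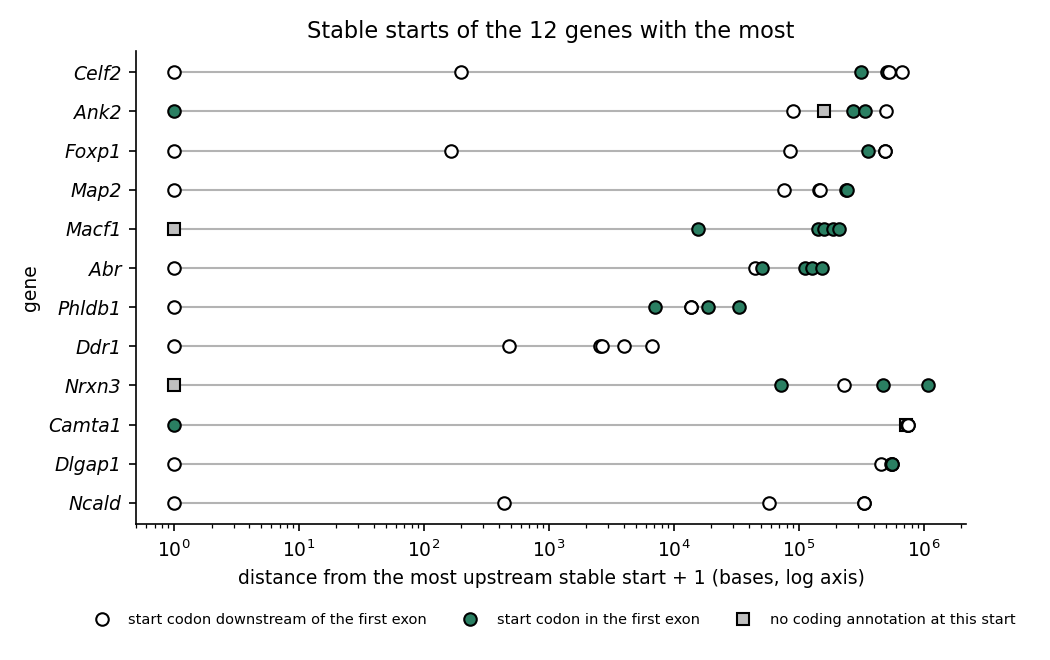
Stable starts of the 12 genes with the most, as distance in bases from the most upstream one on a log axis (1 is added, so that the first start lies at 1). Filled circles are starts whose annotated start codon lies in the first exon, open circles those with the codon further downstream and squares those without coding annotation. Points that lie close together cover each other, and Ddr1, within 6650 bases, is the only gene of the 12 in which every start is within 10000 bases.

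Most of these starts follow the gene models that guide an assembly. The splice-side coordinate was an annotated first-exon end for 4013 of the 4239 starts (94.7%), an internal exon end for 61 and not annotated for 165. The share was 98.1% for genes with 1 stable start. The outer end was at an annotated start for 76.8% of them. How far the annotation placed the starts in these lists was not tested. First exons had a median of 218 bases, with quartiles of 123 and 372, against a median of 224 for genes with 1 stable start. The most upstream start had a median first exon of 196 bases and the most downstream one of 250 bases. There were 9 starts with a median first exon of 10000 bases or more and 157 with under 50 bases.

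The start codon lay in the first exon at fewer of these starts. Of 3860 starts on annotated coding transcripts, 1388 (36.0%) had it there, against 5511 of 8228 (67.0%) in genes with 1 stable start. The share was 31.3% at the most upstream and 41.1% at the most downstream start. In 1527 genes every stable start was on a coding transcript. Of these, 663 (43.4%) had 2 or more annotated start codons among their starts, and 864 shared 1 annotated start codon. The other genes had at least 1 stable start without coding annotation. The start codon, here and for all named genes, is the first coding base of the nearest coding transcript model. Models with an incomplete beginning of the coding sequence were not set apart, so this base may not be a true start codon. It was taken from the gene models, as the lists give no coding sequence.

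Gene lists of neuronal functions are described by their counts, beside the 18.04% over all genes with a stable start. They were written by function and by reputation for alternative promoters, with earlier results of these data known, and long neuronal genes with many annotated transcripts are common in them. The list of textbook genes with alternative promoters had 32 of its 43 genes with a stable start among the genes with several (74.4%). All 32 had separate first exons, and 28 of them had starts 10000 bases or more apart, against 28.1% of all annotated genes with several. Pde4b and Pde4d, phosphodiesterases that degrade cAMP, had 4 stable starts each over 502180 and 666190 bases. Those of Pde4d had 4 different annotated start codons. Bdnf, a neurotrophin, had 2 stable starts 1197 bases apart and 6 listed starts in all. Kalrn, a guanine nucleotide exchange factor of dendritic spines, had 4 stable starts over 477545 bases and Gnas had 4 over 45872 bases.

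Of the medium spiny neuron genes, 19 of 34 (55.9%) had several stable starts. Foxp1 had 6, Rasgrp2, an activator of Rap1, had 5 within 1243 bases, and Pde1c, a calcium-dependent phosphodiesterase, had 4 over 290216 bases. Adora2a, the adenosine receptor of striatopallidal neurons, had 3, Drd1, the dopamine D1 receptor, had 2, and Ppp1r1b, which encodes DARPP-32, had 2. The dopamine receptor gene Drd2 had 1 stable start, and Penk, a precursor of opioid peptides, had none although its starts were listed in some libraries. The lists do not measure expression, and absence from a list was not read as such. Of the opioid and cAMP signalling genes, 17 of 42 (40.5%) had several. Crem, a cAMP-responsive transcription factor with known internal promoters, had 5 stable starts with 5 annotated start codons. The receptor genes Oprm1, Oprd1 and Oprk1 had 1 each and the related receptor gene Oprl1 had 2, 671 bases apart. Prkacb, a catalytic subunit of protein kinase A, had 3 with 3 annotated start codons.

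Of the synaptic adhesion and scaffold genes, 25 of 42 (59.5%) had several stable starts. Besides Ank2, Nrxn3 and Dlgap1, these included Dlg4, the gene of PSD-95, with 4 starts within 11557 bases. Among the cytoskeleton and axon segment genes, 21 of 41 (51.2%) had several, Ank2, Map2 and Macf1 first.

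Of the transcription and chromatin regulators, 19 of 41 (46.3%) had several. They were led by Foxp1, by the corepressor gene Ncor1 with 5 starts and 5 annotated start codons, and by Tcf4, a basic helix-loop-helix factor, with 4. Of the RNA-binding and splicing genes, 16 of 35 (45.7%) had several, led by Celf2, Rbfox1 and Elavl4. Elavl4, a neuronal RNA-stabilising protein, had 4 starts within 4004 bases, each with its own annotated start codon in the first exon. The lowest shares were in voltage-gated channels and transporters, with 11 of 37 (29.7%), and in kinases and phosphatases of the synapse, with 13 of 44 (29.5%). Cacnb2, a calcium channel subunit, and Atp2b2, a calcium pump, had 3 stable starts each and Kcnip4, a potassium channel partner, had 2. Prkcz, an atypical protein kinase C with a brain form from an internal promoter, had 4 over 16196 bases, and Sgk1 and Akt1 had 3 each.

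**Figure D3:**
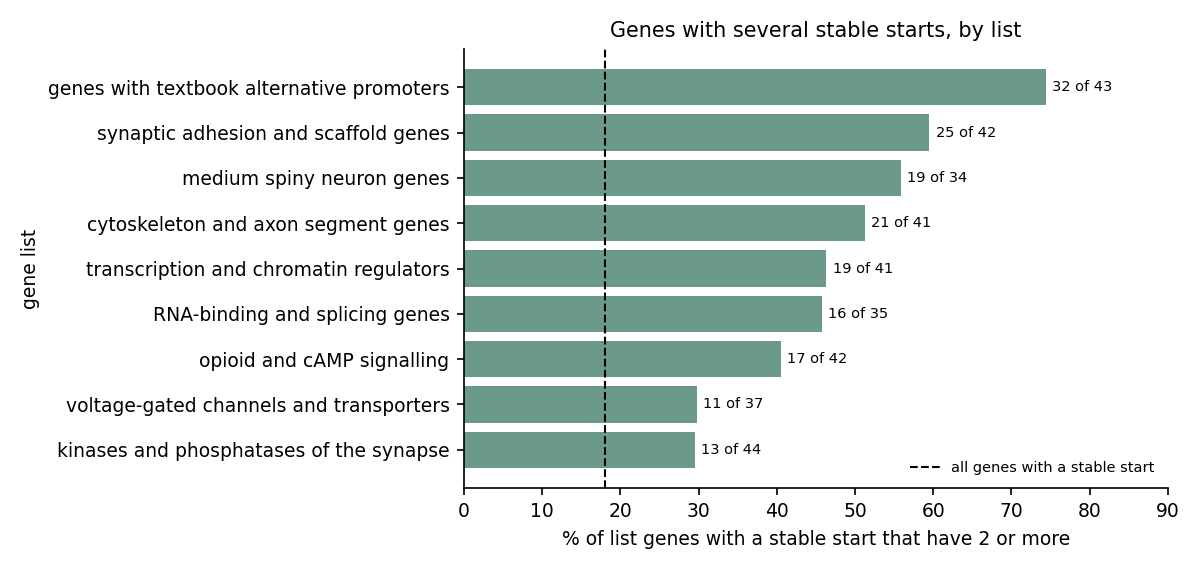
Share of the genes with a stable start that had 2 or more, for 9 gene lists. The label at each bar gives the number of genes with several and the number with any, and the dashed line is the 18.04% over all genes. The bars run from 29.5% to 74.4%.

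Between the groups, the outer end of a stable start was free to differ, because the genes were chosen by the splice-side coordinate. It was the same in all 6 libraries for 3139 of the 4239 starts (74.1%). The other 1100 starts moved over a median range of 134.5 bases, and 217 of them over more than 1000 bases. The median first exon over all 4239 starts was 218, 220 and 216 bases in the saline and 218, 220 and 219 bases in the morphine libraries. The means of 218 ± 2 and 219 ± 1 bases (SD, n = 3 each) did not differ beyond their spread (exact permutation test, two-sided, p = 0.7, where 3 against 3 libraries cannot give a p under 0.1).

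limma (Benjamini-Hochberg adjustment over all 12695 stable starts) called 26 of all stable starts (0.205%) different in first-exon length, and 8 of the 4239 starts described here, of which 6 were longer and 2 shorter in morphine. With overlapping first exons merged, 7 were called, 2 longer and 5 shorter in morphine. At an unadjusted p under 0.05 there were 24 of 4239 (0.566%), near the 0.599% of all stable starts. In 6 of the 8, namely P4ha2, Kctd20, Acbd5, Mcfd2 and both starts of Armcx3, every library of a group had the same length, so there was no spread to test against and no p of this fit is given. The prolyl hydroxylase gene P4ha2 had 78 bases in every saline and 117 in every morphine library at its start 1. Kctd20 had 70 and 159 bases at its start 2 and Acbd5, a peroxisomal gene, 86 and 119 at its start 1. The Armcx3 starts, in an X-linked gene of a mitochondrial protein, had 124 against 136 and 736 against 696 bases, and Mcfd2, a cargo receptor gene, 89 against 83. These differences were between 6 and 89 bases.

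The remaining 2 calls were in Rbfox1 and Plxnb1. Rbfox1, a neuronal splicing factor gene, had 4 stable starts, of which the last 3 were not annotated. At its start 3, on chromosome 16 with the splice-side coordinate 7040025, the first exon was 202, 217 and 211 bases in the saline and 33034, 33021 and 27782 bases in the morphine libraries. The groups lay far apart, with a log2 difference of 7.21 (SE 0.0877, adjusted p = 6.34e-05 by limma). Start 2 of Rbfox1, whose first exon ends 825 bases upstream, had 26945, 32169 and 32204 bases in saline and 32209, 32196 and 26957 in morphine. The long first exon was thus present in all 6 libraries. In each morphine library starts 2 and 3 shared the outer end, and in each saline library start 3 began downstream of the first exon of start 2. With any library left out, the adjusted p for start 3 stayed at or below 0.00164. A first exon of this length in an assembly holds what the annotation has as intron, and reads from unspliced RNA were not told apart here.

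Plxnb1, a semaphorin receptor gene, had 105 bases in each saline library and 863, 863 and 959 bases in the morphine libraries at its start 2, on chromosome 9 with the splice-side coordinate 109096814. The log2 difference was 3.09 (SE 0.0503, adjusted p = 0.000198 by limma). Start 1 of Plxnb1 had 210 bases in all 6. Plxnb1 also had a further start with the coordinate 109099323 that was listed in the 3 morphine and in none of the saline libraries.

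When the fit was limited to the 3698 stable starts whose outer end moved, limma called 21 of them (0.568%) and 7 of the 1100 in genes with several stable starts. Of the 8 calls above, 3 were lost in this fit, both Armcx3 starts and Mcfd2, with an adjusted p by limma of 0.491, 0.771 and 0.771. Plcb4 and Pitpnm2 were called in this fit and not in that over all stable starts. Plcb4, a phospholipase C gene, had 1113, 1456 and 1972 bases in saline and 195, 116 and 123 in morphine at its start 2, a log2 difference of -3.39 (SE 0.333, adjusted p = 0.0335 by limma in the limited fit and 0.212 over all stable starts). Pitpnm2, a phosphatidylinositol transfer protein gene, had 6544, 5044 and 2226 bases in saline and 186 in each morphine library at its start 4, a log2 difference of -4.49 (SE 0.465, adjusted p = 0.0382 by limma in the limited fit and 0.25 over all stable starts). In both genes the saline libraries had the longer exon without overlap. In each saline library the first exon of Pitpnm2 start 4 ran through that of start 3. The outer end was shared with start 3 in saline replicates 1 and 3. In each morphine library start 4 began downstream of the first exon of start 3. With a library left out of the limited fit, the adjusted p by limma was between 0.0283 and 0.0957 for Plcb4, and under 0.05 only without saline replicate 1 or morphine replicate 1. It was between 0.00185 and 0.109 for Pitpnm2, and under 0.05 only without saline replicate 3.

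**Figure D4:**
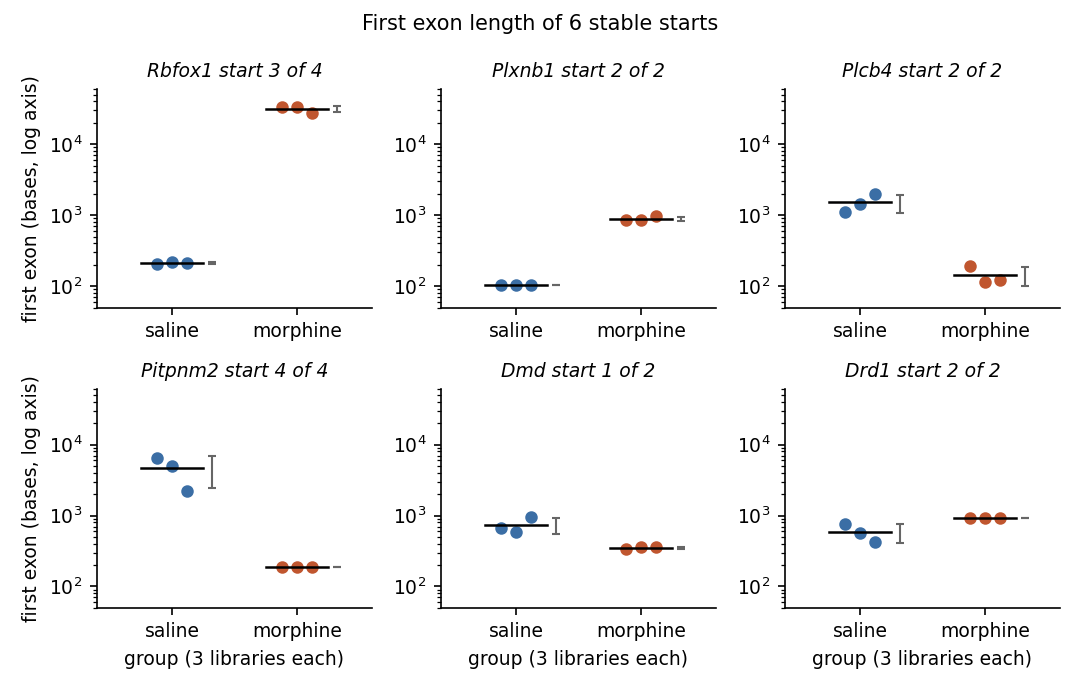
First-exon length of 6 stable starts in each library, in bases on a log axis. Points are libraries (3 per group), the horizontal line is the group mean and the bar beside it the SD. The groups do not overlap in any of the 6, and limma over all stable starts called those of Rbfox1 and Plxnb1 and not the other 4.

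Lengths did not overlap between the groups at 56 of the 4239 starts (1.32%), against 1.17% of all stable starts. Of the 56, 31 were longer in morphine and 25 in saline. Two-sided exact tests on 3 against 3 libraries cannot pass 0.05 here, and most of the 56 were not called by limma. Starts named from these 56 outside the calls were chosen after their values were seen. Drd1 start 2 had 762, 558 and 425 bases in saline and 930 in each morphine library, a log2 difference of 0.72 (SE 0.241, adjusted p = 0.422 by limma). Its start 1 had 98 bases in every library. A start of Dmd that is not annotated had 674, 580 and 958 bases in saline and 338, 355 and 356 in morphine (log2 difference -1.04, SE 0.214, adjusted p = 0.422 by limma).

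In Drd1 the longer exon meant a shared outer end. In all 3 morphine libraries both Drd1 starts began at base 54055658 of chromosome 13, and in the saline libraries start 2 began further downstream, at 54055490, 54055286 and 54055153. Over all 2375 neighbouring pairs, 226 to 257 pairs per library shared the outer end, 127 in all 6 libraries and 1985 in none. Pairs that shared it in every morphine and no saline library numbered 4 (0.168% of all pairs), in Rbfox1, Drd1, Adgrg1 and Klhl23. The reverse held for 3 pairs (0.126%), in Dph7, Plcb4 and Armcx3. These 7 were named after their values were seen.

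Beyond their stable starts, the genes had 3914 further starts, each listed in 1 to 5 libraries. Of these, 2328 (59.5%) were in 1 library. The starts listed in these genes numbered 5429, 5336 and 5511 in saline and 5546, 5447 and 5378 in morphine. The means of 5425 ± 87.6 and 5457 ± 84.4 (SD, n = 3 each) lay closer than the libraries of a group (p = 0.7 in a two-sided exact permutation test). The groups overlapped and the order followed neither the group nor the estimated depth.

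Of the 3914 further starts, 19 (0.485%) were listed in every saline and no morphine library, against 0.364% of the 31030 starts of all genes that were not in all libraries. In the other direction there were 15 (0.383%), against 0.445%. Both shares were near those of all genes. The morphine-only starts were in, among others, Arhgef2, a microtubule-bound exchange factor gene, Begain, a postsynaptic protein gene, Cep44, Elavl2 and Gas2. Those of Arhgef2 and Elavl2 were annotated first exons of 120 and 427 bases in each morphine library. The saline-only starts were in, among others, Acin1, Agap1, Arl6ip4, Axin2, a Wnt feedback gene, and Clu, which encodes clusterin. The Axin2 exon had 349 bases and the Clu exon 141 bases in each saline library, both at annotated first-exon ends. Chosen after the lists were seen, Pde4d and Rasgrp2 also had a saline-only start, of 65 and 101 bases.

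Genes with several stable starts also had other alternative events more often. Exon skipping was listed for 37.9%, 38.6% and 40.0% of them in saline and 38.2%, 38.7% and 38.6% in morphine. In genes with 1 stable start the shares were 22.8%, 22.9% and 23.9% in saline and 23.6%, 24.2% and 23.4% in morphine. The mean difference was 15.2 percentage points, it was positive in 6 of 6 libraries and it lay between 14.5 and 16.1 (exact sign-flip test over the libraries, two-sided, p = 0.0312, the smallest that 6 libraries allow). Within either set of genes the shares of saline and morphine libraries overlapped. Intron retention was listed for 19.9% to 26.0% of the genes with several and 14.7% to 21.7% of those with 1, and alternative exon ends for 22.9% to 24.5% and 13.4% to 14.9%. The genes with several stable starts were also longer (median 32164 against 27389 bases) and had more annotated transcripts (median 7 against 5) and more annotated first-exon ends (median 4 against 3), whose part in the difference was not tested. By the rule they had 2 or more listed starts in every library. The median number of different starts listed over all libraries was 4, against 1 in genes with 1 stable start. The part of this choice in the difference was not tested. The same genes were counted in every library, so the sign-flip p measures the libraries and not the genes.

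**Figure D5:**
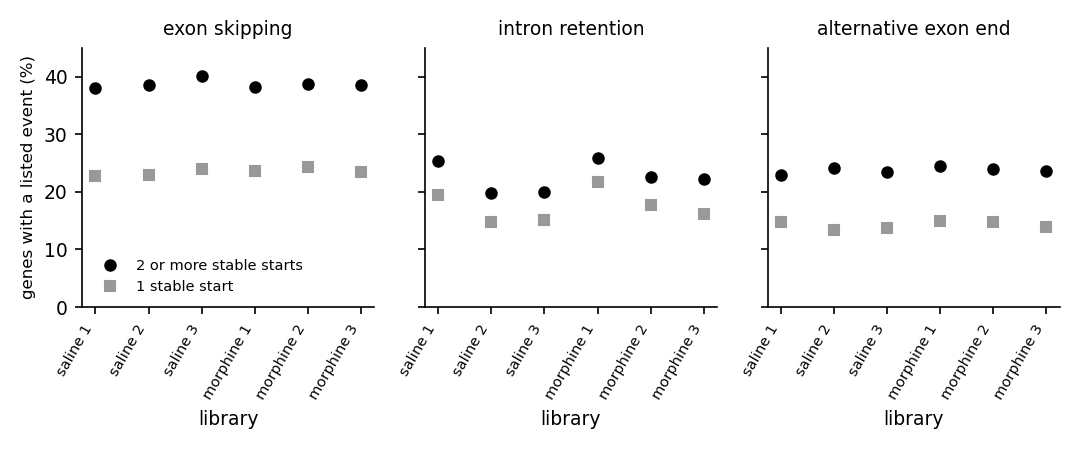
Share of genes with a listed exon skipping, intron retention or alternative exon end event in each of the 6 libraries. Black circles are the 1861 genes with 2 or more stable starts and grey squares the 8456 genes with 1, and the circles lie above the squares in every library for all 3 kinds of event.

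Transcript ends went the other way. Only 8 of the 1861 genes (0.43%) had 2 or more stable transcript ends, against 306 of the 8456 genes with 1 stable start (3.62%). How the lists pair starts with ends is not given in the sources used here, and its part in this difference was not tested.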

How the data were processed

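Total RNA of 6 NAc libraries was sequenced by the authors, 3 per group, with groups taken from the treatment label and replicate numbers in accession order. Per the study's methods, strand-specific libraries were mapped with HISAT2 and assembled with StringTie, and gffcompare set the transcripts against the annotation. The genome build and the program that wrote the event lists are not given in the sources used here. The deposited event lists give coordinates per library, and their column named as FPKM held only 0 and negative whole numbers and was not used. The raw counts and the FPKM values of the table of differential transcripts were made by the authors with StringTie and served only for relative depth. That table also holds the authors' own fold changes and p-values, which were not used. The number of per-sample columns left unused for lack of a label was 0.

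First-exon length is the number of bases from outer end to splice side. limma 3.58.1 (R 4.3.3) was fitted on its log2 over all 12695 stable starts, morphine minus saline, with no covariate. For single values per library, exact permutation tests (two-sided, scipy 1.17.1) were used. The limma step was also run on simulated data for starts whose outer end moved. Starts with the same outer end in all libraries were not covered by it. Gene models were those of GENCODE M21 and promoters those of RefSeq. Windows matched to stable starts on chromosome 18 were left out, and the set of all RefSeq windows kept that chromosome. Named were the 12 genes with the most stable starts, the 3 of each list with the most, the called starts (at most 5 a direction) and at most 5 genes per group with starts in that group only, in symbol order. A list and some named genes are not reported here. Other names are said to be chosen after their values were seen, or illustrate a list. The genes, lists and rules were chosen with earlier results of these data known. Alternatives were other start identities, other sequence sets, other limma settings and each library left out in turn.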

Additional observations from a re-analysis of the deposited data

How the results depend on the processing

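The number of genes with several stable starts was 1861. It was 1167 when the outer end also had to be equal, which by construction splits starts that move. It lay between 1242 and 2480 when overlapping first exons were merged, 5 of 6 libraries were enough, or starts on the other strand or on patch sequences were left out. With a library left out it was 1935 to 1986. The count of called first-exon differences, 8, was 7 or 8 under the 6 other settings, but the 7 among moving starts lost 3 calls and added 2, and the 7 with merged first exons were 2 longer and 5 shorter in morphine against 6 and 2. It was 16 to 23 with a library left out, where a group of 3 keeps 2 libraries. Called starts with no spread in either group rest on exact equality in the assemblies. The difference in exon skipping stayed between 15.1 and 18.5 percentage points. With 5 libraries its exact p was 0.0625, the smallest possible, at differences of 15.1 to 15.6 percentage points. The difference in listed starts, 31.7 more in morphine, was between -7 and 88.2 with a library left out, -7 without morphine replicate 1, and the difference in median first exon stayed between 0.167 and 2.33 bases. No paired analysis was possible because the labels give the groups no shared replicate numbers. Starts depend on assembly and depth, and a start missing from a list may be present in the tissue.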
